A study of Mus musculus with 18 samples.

Results

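The change that PLAAT3-PEX11 overexpression brought in one set of mouse brain libraries was set against the change it brought in a second set. In the first set, 2 libraries labelled PLA1 were compared with 2 labelled Ctrl1. In the second, named for neurons, 2 libraries labelled Neuron-PLA were compared with 2 labelled Neuron-ctrl. The quantity followed throughout is the neuron-set change minus the first-set change on log2(RPKM + 1), where RPKM is the read number scaled by exon length and library size. It is called the difference between the sets: a gene is "higher" where the neuron-set change lay above the first-set change, and "lower" where it lay below. These are 8 of the 18 libraries of the series, and the comparison covers 10424 of 32941 genes, those with a mean of at least 1 RPKM in the table of each set. Another 1199 genes reached that mean only in the first table and 755 only in the neuron table.

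The series asks what peroxisomal lipid synthesis does during cortical neurogenesis. All 8 libraries are labelled brain, from mice; the controls of both sets are labelled wild type and the treated libraries carry overexpression of PLAAT3 and PEX11. RNA was taken with Trizol, and 2 ug of total RNA went into each library. The labels give no age, construct, promoter or route of delivery, and leave unsaid what the neuron libraries were prepared from. Nor do they say whether the 2 libraries of a group came from separate animals or cultures. The p-values therefore reflect variation among the libraries at hand, possibly only technical. The sets were also tabulated separately, so whatever else separated the sets cannot be told apart from the tissue or cell source.

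PLAAT3 is a phospholipase and acyltransferase that acts on membrane phospholipids and is known for its part in organelle breakdown in the lens. PEX11 proteins elongate and divide peroxisomes, the organelles in which the first steps of ether lipid (plasmalogen) synthesis take place. Several of the gene groups below belong to 2 stress programmes. ATF4 is a transcription factor whose translation rises when the initiation factor eIF2 is phosphorylated, and it switches on amino acid synthesis and uptake. Interferons act through the STAT and IRF factors on a large set of antiviral genes.

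Read totals recovered from the tables were 16147911 to 28104927 per library. Within a group, the 2 libraries correlated at 0.982 to 0.991 across genes on log2(RPKM + 1). The SD of log2 differences between libraries, among genes of at least 5 RPKM, was 0.182 to 0.25 within groups, 0.423 to 0.503 between treated and control libraries of the first set, and 0.287 to 0.355 in the neuron set. The control libraries of the sets differed in marker levels, on tables normalised separately. The summed RPKM of 22 pan-neuronal markers was 2469 and 2490 in Ctrl1 and 5720 and 5890 in Neuron-ctrl, that of 30 mitosis genes 940 and 957 against 197 and 190, and that of 34 interferon-stimulated genes 758 and 707 against 30.6 and 34.9. The summed RPKM of 20 endothelial markers was closer, at 75.7 and 74.7 in Ctrl1 and 88 and 85.6 in Neuron-ctrl. Single members differed in direction. Cldn5 lay between 0 and 0.0671 RPKM in all first-set libraries and at 18 and 17.4 in Neuron-ctrl. Slc2a1 read 37.5 and 38.3 in Ctrl1 and 27.6 and 19.5 in Neuron-ctrl. In bulk RNA, fewer cells of a type and less RNA per cell cannot be told apart.

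The overexpressed gene Plaat3 rose in both sets. Plaat3 (ENSMUSG00000060675, chromosome 19 at 7557459 to 7588545, plus strand, GRCm38) read 0.413 and 0.431 RPKM in Ctrl1, 31.4 and 29.1 in PLA1, 0.0699 and 0.23 in Neuron-ctrl, and 19 and 20.8 in Neuron-PLA. All 4 treated libraries stood far above all 4 controls. On log2(RPKM + 1) it rose by 4.46 in the first set and 4.19 in the neuron set. The difference was -0.27 (SE 0.21, adjusted p = 0.445, 95% interval -0.72 to 0.19) and turns positive with a pseudocount of 0.1 (0.54) and on recovered reads (1.11), where the low control values weigh more. Its level was lower in Neuron-PLA than in PLA1, on tables normalised separately.

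Of the 10424 genes, 1208 (11.6%) passed the test of the difference at an adjusted p under 0.05, 621 higher (5.96%) and 587 lower (5.63%). The difference was at least 2-fold for 188 and 241 of them. The test called no gene whose 4 library-to-library changes overlapped between the sets, and 4378 of all genes tested (42.0%) showed no such overlap. Of the 1208, 67 (25 higher and 42 lower) had a mean under 1 RPKM in at least 1 group and reached the filter through the other group of that table. Among the genes counted below these are Rtp4, Ifitm3, Cth, Mtfr2, Cdk1, Ndc80, Anln, Gabrb2 and Scg2. Within the sets, 1341 genes rose (12.9%) and 1406 fell (13.5%) in the first set, or 26.4% in all, while 104 rose (0.998%) and 189 fell (1.81%) in the neuron set, or 2.81% in all. Most of the differences were changes that passed in the first set with a neuron-set change that did not: 537 of the 621 higher genes fell in the first set and did not pass in the neuron set, and 427 of the 587 lower genes rose in the first set and did not pass in the neuron set. Changes that passed only in the neuron set accounted for 25 higher and 43 lower genes, and opposite calls in both sets for 7 and 43. The genes that rose in the first set had a median change of 0.61 there and 0.04 in the neuron set, where 55.8% had the same sign. For those that fell, the medians were -0.59 and -0.08, with 63.1% of the same sign. Across all genes tested the 2 changes correlated at a Pearson r of 0.176, a description over genes, which are not independent. The median of all genes was -0.03 for the difference, 0.04 for the first set and -0.00 for the neuron set.

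Leaving out 1 library lowers these counts by more than 1.5 times in several cases. Without Ctrl1 replicate 1 the higher and lower genes numbered 342 and 255, without Ctrl1 replicate 2 they numbered 386 and 343, and without Neuron-ctrl replicate 2 they numbered 404 and 376. Without PLA1 replicate 2 they were 453 and 327. The rise and fall counts in the first set came to 357 and 627 without Ctrl1 replicate 1, 654 and 917 without Ctrl1 replicate 2, and 501 and 830 without PLA1 replicate 2. In the neuron set they came to 9 and 11 without Neuron-ctrl replicate 2, 15 and 52 without Neuron-PLA replicate 1, and 52 and 62 without Neuron-ctrl replicate 1. The shared estimate of spread carries first-set libraries into these counts, which were 61 and 111 without Ctrl1 replicate 1, 62 and 110 without Ctrl1 replicate 2, 69 and 122 without PLA1 replicate 1, and 68 and 122 without PLA1 replicate 2.

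**Figure D1:**
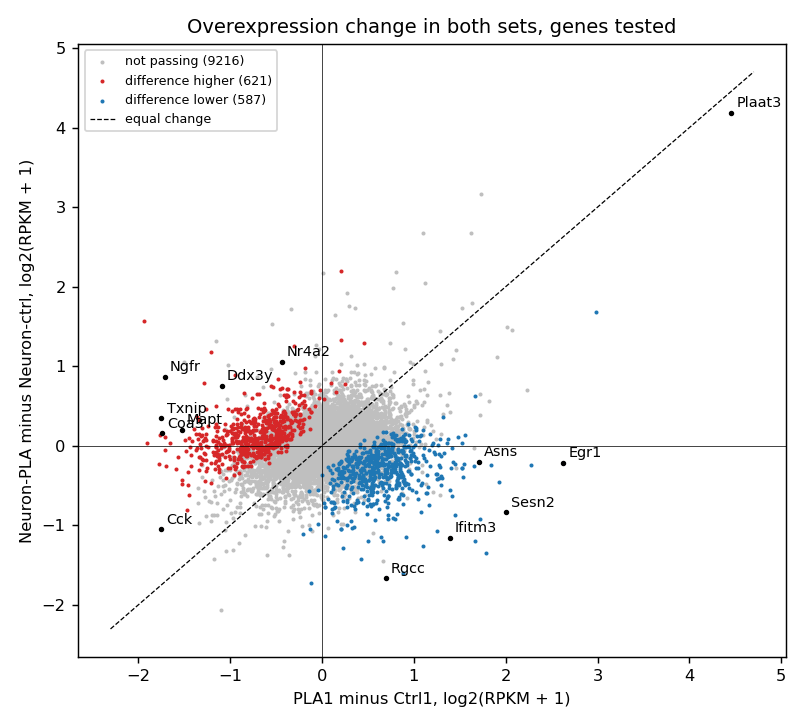
Change with overexpression in the first set (horizontal) and the neuron set (vertical), both in log2(RPKM + 1), for each of the 10424 genes tested, with genes that passed the difference in red (621 higher) and blue (587 lower). The dashed line marks equal change: Plaat3 lies near it at 4.46 and 4.19, and most coloured genes spread along the horizontal axis with neuron-set changes near 0.

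Among the lists of at least 2 tested genes, the ATF4 and integrated stress response list had the largest share of passing genes. Of 30 genes, 22 were tested, and 19 of them were lower, against 5.63% of all genes tested. None was higher, also at an unadjusted p under 0.05 and with limma-voom on recovered reads. Their median change was 0.92 in the first set, where 19 rose, and -0.20 in the neuron set, where 4 fell. Asns, which makes asparagine, read 86.5 and 91.7 RPKM in Ctrl1, 279 and 307 in PLA1, 78.7 and 87.9 in Neuron-ctrl, and 73 and 71.9 in Neuron-PLA. Both PLA1 libraries stood above every other library, and the neuron libraries were all close to the Ctrl1 level. Its difference was -1.90 (SE 0.11, adjusted p = 3.85e-05). Sesn2, a stress-induced inhibitor of the growth regulator mTORC1, went from 20.8 and 20.5 to 82.7 and 88.6 in the first set and from 4.57 and 6.58 to 2.52 and 2.76 in the neuron set. It rose in the first and fell in the second, with a difference of -2.84 (adjusted p = 8.07e-05). Trib3, a pseudokinase that feeds back on ATF4, went from 9.57 and 9.19 to 50.4 and 48.4 in the first set. In the neuron set it lay between 0.77 and 2.14 in all 4 libraries, and its difference was -2.52 (adjusted p = 0.00116).

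The serine synthesis enzymes did the same. Phgdh, its first enzyme, read 261 and 270 in Ctrl1, 488 and 458 in PLA1, 68.6 and 67.2 in Neuron-ctrl, and 44.5 and 40.7 in Neuron-PLA, so it rose in one set and fell in the other (difference -1.49). Psat1, the next enzyme, rose from 100 and 95.5 to 224 and 197, and fell from 20.7 and 17.7 to 13.7 and 13.5 (difference -1.56). Among the amino acid carriers, Slc7a5 went from 6.13 and 7.72 to 19.7 and 37.4 in the first set and lay between 4.31 and 5.87 in the neuron set (difference -2.08). Slc7a3, a carrier of cationic amino acids outside the list, went from 10.1 and 10 to 39.3 and 42.5, and read 7.42 and 5.45 in Neuron-ctrl and 3.89 and 4.91 in Neuron-PLA (-2.38). Cth, which makes cysteine, had a difference of -2.31 and reached the filter in the neuron table only through Neuron-ctrl (means of 1.7 and, in Neuron-PLA, 0.486 RPKM). Atf4 itself had a difference of -0.61. Eif2ak3 did not pass (0.08). Of 20 aminoacyl-tRNA synthetases, enzymes that load amino acids onto tRNA, several of them ATF4 targets, 11 were lower and none higher, with a median difference of -0.54 beside -0.03 over all genes. Iars, the isoleucine enzyme, read 33 and 34.9, 71 and 63.1, 23.7 and 24.5, and 23.8 and 22.3 in the 4 groups in the order used above (difference -1.02, adjusted p = 0.00114). The endoplasmic reticulum chaperone and unfolded protein response list had 2 lower genes of 21 and none higher, Hspa5 (-0.57) and Herpud1 (-0.83). That share of 9.52% is near the 11.6% of all genes that passed.

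The promoters of these genes were searched for TGATGNAA, the composite site that ATF4 forms with C/EBP factors, in the 250 bases before the start site and on both strands, in RefSeq promoters of GRCm38.p6. Of 28 members of the ATF4 list with a promoter there, 8 (28.6%) held it, against 178 of 8146 tested genes (2.19%) and 3.91% of all promoters in the table. Among the lower members it was 3 of 17 (17.6%), among the lower synthetases 3 of 8 (37.5%), among all lower genes 4.24% and among all higher genes 4.2%. The 3 lower ATF4-list members with a match are shown because they are the ones whose promoters carry these letters, with the match in capitals and 50 bases on each side where the window allows.
Asns, chr6:7693210-7693282, minus strand: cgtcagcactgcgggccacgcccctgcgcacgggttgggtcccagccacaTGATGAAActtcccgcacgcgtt
Chac1, chr2:119350999-119351106, plus strand, with the match on the other strand: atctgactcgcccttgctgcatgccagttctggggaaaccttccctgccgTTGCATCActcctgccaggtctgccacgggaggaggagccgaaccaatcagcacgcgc
Pycr1, chr11:120643794-120643901, minus strand: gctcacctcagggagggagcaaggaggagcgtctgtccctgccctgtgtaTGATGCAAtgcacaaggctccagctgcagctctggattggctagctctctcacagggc
A match is a description of the letters and not a measured site. Chac1, which degrades glutathione, had a difference of -1.42, and Pycr1, a proline synthesis enzyme, one of -0.73.

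**Figure D2:**
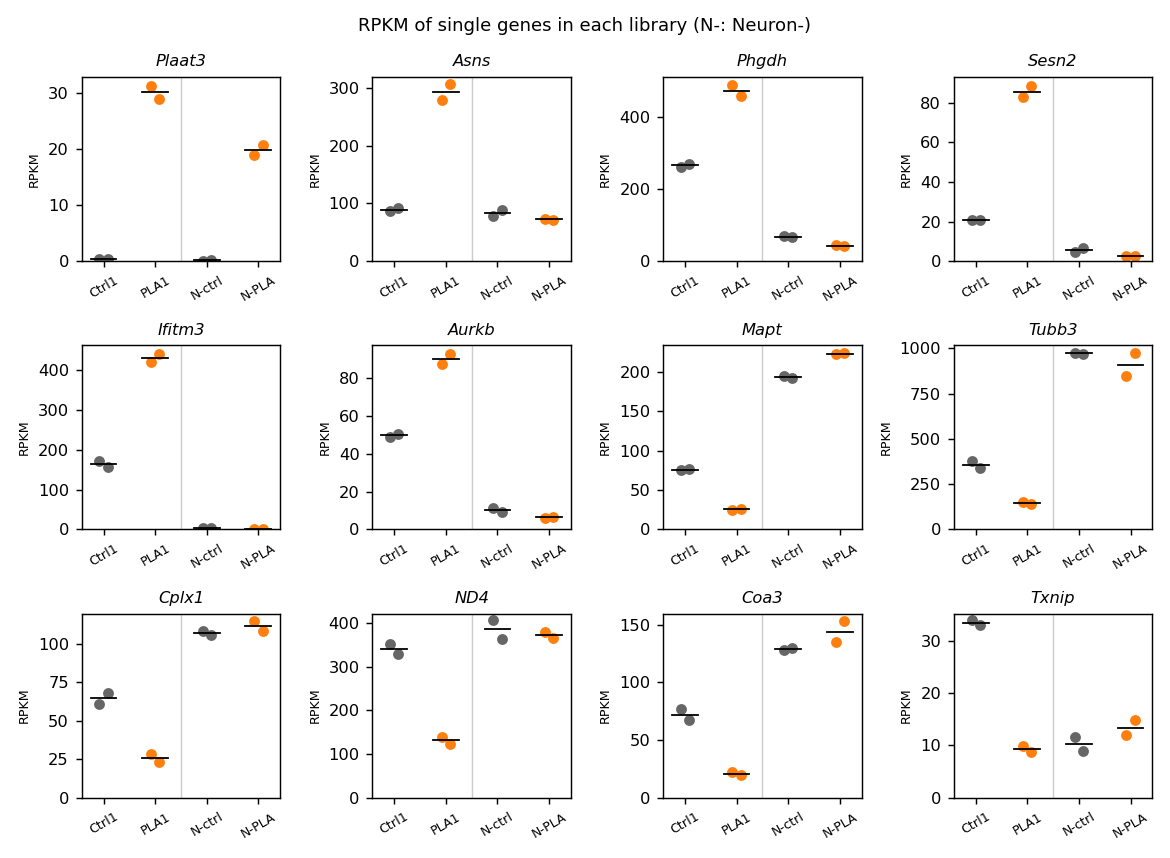
RPKM in each of the 8 libraries (points) with the group mean (bar) for 12 genes, on linear axes starting at 0, with the first set left and the neuron set right of each grey line. Plaat3 stands high in both treated groups, Asns, Phgdh, Sesn2, Ifitm3 and Aurkb stand high in PLA1 and not in Neuron-PLA, and Mapt, Tubb3, Cplx1, ND4 and Coa3 stand low in PLA1 and not in Neuron-PLA. Txnip stands high in Ctrl1 and low in PLA1 and in both neuron groups.

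Interferon-stimulated genes were strongly expressed in the first set and mostly under 1 RPKM in the neuron set. Only 6 of the 34 in the list reached the mean of 1 RPKM in both tables, the other 28 being low in the neuron table alone, so the count that follows is not one over all members. Of those 6, 4 were lower and none higher, with medians of 1.23 in the first set, where 5 rose, and -0.31 in the neuron set. Ifitm3, a membrane protein that blocks virus entry, read 171 and 157 in Ctrl1, 421 and 441 in PLA1, 2.64 and 4.01 in Neuron-ctrl, and 0.562 and 1.36 in Neuron-PLA. It rose in the first set and fell in the neuron set, with a difference of -2.54 (adjusted p = 0.00037). Bst2, which tethers virus particles, went from 144 and 128 to 378 and 368 in the first set and lay between 3.62 and 6.44 in the neuron set, a difference of -1.68. Rtp4 went from 75.4 and 62.1 to 155 and 150, against 0.924 and 1.94 and then 0.625 and 0.534 (-1.74). Rtp4 and Ifitm3 reached the filter in the neuron table through Neuron-ctrl, since their means in Neuron-PLA were 0.58 and 0.963 RPKM, so the count of 4 is no support for the list. Ifi27 did not pass (0.35). Among the genes too low for the test, Ifit1 went from 17.4 and 19.9 to 86.7 and 84.3 RPKM, and Usp18 from 33.3 and 33.1 to 106 and 112. In the neuron libraries neither exceeded 0.416, so no change could be measured there.

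Of 14 MHC class I presentation genes 5 were tested. Tapbp, the peptide-loading chaperone, read 37.9 and 40.6, 108 and 121, 7.56 and 6.72, and 5.18 and 6.3 (difference -1.80). Tapbp, Psmb10, an immunoproteasome subunit (-1.33), and H2-D1 (-0.68) were lower. That made 3 lower of the 5, against 5.63% of all genes tested. That count was 1 without Ctrl1 replicate 2, without PLA1 replicate 2 or without Neuron-ctrl replicate 2. Irf9, part of the interferon-activated transcription complex, rose from 39.1 and 41.6 to 84.2 and 81.9 and read 3.43 and 3.2 against 2.51 and 2.59 in the neuron set (-1.30). It was the only passing gene of 11 nucleic acid sensors and interferon regulators, a share of 9.09% that is near the 11.6% of all genes. Since log2(RPKM + 1) compresses changes at such low levels, the neuron-set changes of these genes are drawn toward 0, though that of Ifitm3 was -1.15. With limma-voom on recovered reads the differences were -3.19 for Ifitm3, -2.37 for Rtp4 and -1.73 for Bst2. The core letters of the interferon-stimulated response element are GAAA, any pair of bases, and GAAA again. On either strand they occurred in 13 of 23 promoters of the list (56.5%), against 220 of 8146 tested genes (2.7%) and 936 of 27025 promoters in the whole table (3.46%). Most of the list was not among the genes tested. Of the lower list genes Bst2 holds them and is shown for that reason. Its promoter holds 2 matches, of which 1 is in capitals.
Bst2, chr8:71537537-71537646, minus strand: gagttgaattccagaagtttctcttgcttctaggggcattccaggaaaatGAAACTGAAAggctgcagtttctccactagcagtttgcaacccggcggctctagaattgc

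Genes of dividing cells were lower. Of 29 mitosis genes tested, 23 were lower and none higher, against 5.63% lower among all genes, and all 29 had a negative difference. Their median was 0.65 in the first set, where 24 rose, and -0.23 in the neuron set, where 4 fell. The count of lower genes was 11 to 15 when any 1 of the libraries was left out other than Neuron-PLA replicate 2, for example 11 without Ctrl1 replicate 1 or without PLA1 replicate 2. Aurkb, the kinase of the chromosomal passenger complex, read 49.1 and 50.5 in Ctrl1, 87.4 and 93 in PLA1, 11.5 and 9.44 in Neuron-ctrl, and 6.25 and 6.43 in Neuron-PLA; it rose in one and fell in the other (difference -1.48, adjusted p = 0.000337). Of 31 DNA replication genes, 15 were lower, and all 31 had a negative difference; the count was 8 without Ctrl1 replicate 1 and 9 without Ctrl1 replicate 2. Cdc6, which loads the replicative helicase, went from 14.7 and 16 to 32.3 and 31.9 in the first set and read 3.68 and 3.15 against 2.29 and 1.64 in the neuron set (-1.60). The cyclin Ccnd1 went from 50.7 and 51 to 137 and 135, and lay between 10.4 and 15.5 in the neuron set (-1.68). The p53 target list was mixed, with 3 higher and 5 lower of 17, against 5.96% and 5.63% of all genes tested. The lower count was 0 to 3 with any 1 library left out (0 without Ctrl1 replicate 1) and 3 under median-ratio or upper-quartile scaling, and the higher count was 1 without Ctrl1 replicate 2. The cell cycle inhibitor Cdkn1a (-1.18) and Zmat3 (-1.13) were lower, and Plk2 (1.17) and Trp53inp1 (0.93) higher.

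Radial glia and neural stem cell genes moved apart between the sets. Of 23 tested, 11 were lower and none higher, against 5.63% lower among all genes tested. Of the 23, 9 rose in the first set and 10 fell in the neuron set, with medians of 0.34 and -0.49. Phgdh, given above, is in this list and in the ATF4 list, so the 2 counts are not separate. Slc1a3, the glial glutamate transporter, read 18.6 and 18.9, then 40.5 and 41 in the first set, and 25.4 and 23.7, then 18.4 and 16.1 in the neuron set, so the 2 sets started near the same level and moved apart (difference -1.57, adjusted p = 0.000199). Tnc, an extracellular matrix protein of the stem cell niche, went from 2.62 and 3.14 to 9.53 and 8.85 in the first set, and read 13.8 and 13.8 against 8.54 and 9.66 in the neuron set (-1.95). Hes5, the Notch effector that holds progenitors undifferentiated, was at 87.8 and 83.6, 107 and 112, 73.5 and 67.4, and 37.5 and 45.5, a rise and a fall (-1.10). The stem cell factors Sox9 (-1.18), Pax6 (-0.75) and Hopx (-1.37) were lower, while Emx2 (0.11) and Lhx2 (0.08) did not pass. Id1, a BMP target that blocks proneural factors, had one of the largest negative differences (-2.04).

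Signalling readouts split within their lists. The counts in this paragraph stand beside 5.63% lower and 5.96% higher among all genes tested. Of 8 FGF-ERK feedback targets tested, 4 were lower and 1 was higher. The lower count was 2 when Ctrl1 replicate 1 or 2, PLA1 replicate 2, Neuron-ctrl replicate 1 or 2, or Neuron-PLA replicate 1 was left out. The transcription factor Etv5 rose from 20.5 and 19.9 to 35.5 and 32.3 and fell from 12.6 and 13.5 to 6.24 and 6.6 (-1.64). Dusp6, the phosphatase that turns ERK off, moved the other way: it fell from 9.84 and 9.98 to 2.79 and 2.83 in the first set and read 12.6 and 13.3 against 8.34 and 10.6 in the neuron set (1.09). Of 15 immediate early genes, 5 were lower and 1 higher. The lower count was 3 without Ctrl1 replicate 1 or 2, PLA1 replicate 1 or Neuron-PLA replicate 2. Egr1, with the largest negative difference of all named genes, went from 0.861 and 1.63 to 10.6 and 15.1 in the first set, while the neuron libraries lay between 6.6 and 8.96 (-2.84, adjusted p = 0.000349). Nr4a2, an orphan nuclear receptor, was the higher one, at 6.34 and 8.41 against 5.65 and 4.66, and at 9.33 and 7.27 against 18.2 and 18.2 (1.49). Of 11 Notch genes tested, 2 were lower, Hes5 and Mfng, and 1 higher, Rfng (0.56), and the list's median was -0.06. The Notch ligand Jag1 (1.59 and 1.71 to 9.84 and 9.08) and the Hedgehog-responsive Fgf15 (2.06 and 1.63 to 58.5 and 63.9), Gli1 and Hhip were too low in the neuron table to be tested.

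**Figure D3:**
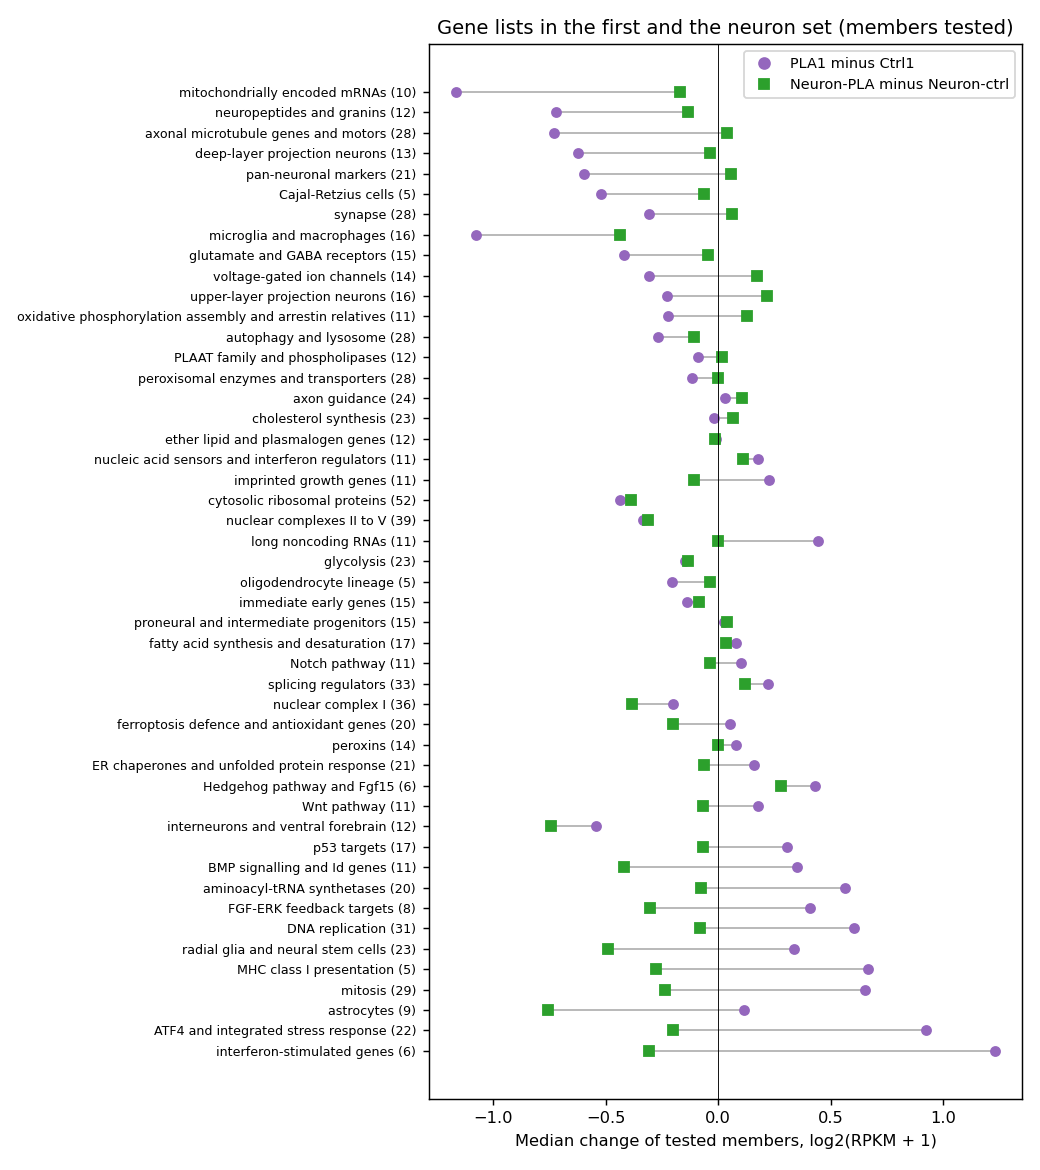
Median change of the tested members of each gene list in the first set (purple circles) and the neuron set (green squares), in log2(RPKM + 1), ordered by the median difference, with the number of members tested in brackets and lists of at least 5 members shown. Interferon, ATF4, mitosis and replication lists stand to the right of 0 in the first set only, and neuronal, microtubule and mitochondrially encoded lists stand to the left of 0 in the first set with neuron-set medians nearer to 0.

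Many genes of differentiated neurons were higher. Of 21 pan-neuronal markers tested, 13 were higher and none lower, against 5.96% of all genes, and all 21 had a positive difference. In the first set 15 fell, with a median of -0.59; in the neuron set none passed in limma on log2(RPKM + 1), with a median of 0.06. At an unadjusted p under 0.05 there were 5 positive and 1 negative, and limma-voom called 4 that rose. Mapt, which encodes the microtubule protein tau, read 75.4 and 76.4 in Ctrl1, 25.2 and 26.2 in PLA1, 195 and 193 in Neuron-ctrl, and 223 and 224 in Neuron-PLA. It fell in the first set and did not pass in the neuron set, with a difference of 1.73 (SE 0.09, adjusted p = 3.33e-05). Tubb3, the neuronal beta-tubulin, went from 375 and 337 to 153 and 142 in the first set and lay between 846 and 974 in the neuron set (1.17). Stmn2, a regulator of growing microtubules, went from 65.1 and 58.8 to 23.2 and 20, and lay between 167 and 188 (1.41). Of 28 axonal microtubule genes and motors, a list that shares genes with the neuronal one, 18 were higher and none lower, with medians of -0.73 and 0.04. The dynein chain Dync1i1 read 39.5 and 38.6, then 11.4 and 12, and 170 to 179 in all 4 neuron libraries (1.69), and the tubulin Tubb2a 55.2 and 56.6, then 21.8 and 22.1, and 230 to 272 (1.44).

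Layer, synapse and channel genes followed in smaller numbers, where 5.96% of all genes tested were higher and 5.63% lower. Lists can share genes, and Nr4a2 counts among both the immediate early and the deep-layer genes. Of 13 deep-layer markers 6 were higher, and of 16 upper-layer markers 5, with none lower in either list. Both counts were smaller under some alternatives. Rorb, a factor of upper and middle layers, went from 8.36 and 7.2 to 3.16 and 2.56 and lay between 14.5 and 16.1 in the neuron set (1.25). Of 28 synapse genes 10 were higher and 1, Dlg3 (-0.81), lower. Cplx1, which clamps vesicle fusion, read 60.8 and 67.9, then 28.3 and 23.1, and 105 to 115 in the neuron libraries (1.36). Of 15 glutamate and GABA receptor genes 6 were higher. The count was 1 to 3 when any 1 library other than Neuron-PLA replicate 2 was left out, with 1 without Ctrl1 replicate 1. Gria2, an AMPA receptor subunit, was among them by a rise in the neuron set, from 39.1 and 37.6 to 62.1 and 61.7, with 10.8 and 11.1 against 12.1 and 12.5 in the first (0.52, adjusted p = 0.0231). Of 14 voltage-gated channels 4 were higher. The count was 1 or 2 without any 1 of the control libraries or of the Neuron-PLA libraries. Of 12 neuropeptide and granin genes 7 were higher, a count that was smaller under some alternatives. Among them was Npy, at 5.01 and 4.11 against 1.2 and 1.18 in the first set and 103 to 128 in the neuron set (1.20). Scg2, a granin, fell in the first set from 1.61 and 2.17 to 0.96 and 1.02. It rose in the neuron set from 8.27 and 9.88 to 15.1 and 16.4 (difference 1.27). Scg2 reached the filter in the first table only through Ctrl1 (means of 1.89 and, in PLA1, 0.99 RPKM). Its fall there is therefore no support for an opposite change.

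**Figure D4:**
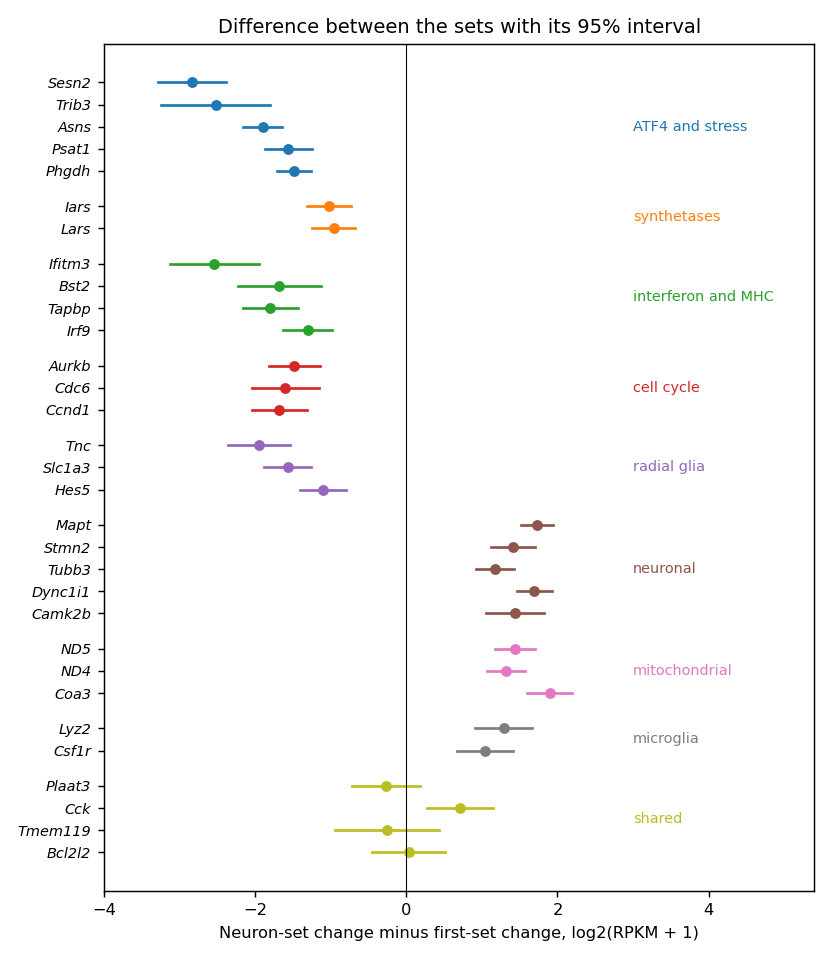
Difference between the sets (point) with its 95% interval (line) for named genes by group, on the log2(RPKM + 1) scale, where 0 means equal change in both sets. Stress, interferon, cell cycle and radial glia genes lie left of 0, and neuronal and mitochondrial genes and the microglial Lyz2 and Csf1r right of 0. Among the shared genes the intervals of Plaat3, Bcl2l2 and the microglial marker Tmem119 (-0.25) include 0.

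Genes encoded by mitochondrial DNA were higher, and the nuclear genes of the same complexes were not. Among all genes tested 5.96% were higher. Of 10 mitochondrially encoded mRNAs tested, 7 were higher, with medians of -1.17 in the first set, where 9 fell, and -0.17 in the neuron set, where none passed in limma, 4 were negative at an unadjusted p under 0.05 and limma-voom called 2 that fell. ND4, a complex I subunit, read 353 and 329, then 139 and 123, and 365 to 408 in the neuron libraries (difference 1.32, adjusted p = 0.000183); ND5 read 115 and 102, then 40.8 and 43, and 88.1 to 101 (1.44). None of 36 nuclear complex I genes and none of 39 genes of complexes II to V passed the difference in limma at an adjusted p under 0.05, and their medians were -0.14 and 0.04. At an unadjusted p under 0.05 there were 1 higher and 5 lower of complex I, and 2 higher and 1 lower of the rest, and limma-voom called none. The first-set and neuron-set medians were -0.20 and -0.38 for complex I, of which 9 and 7 genes fell, and -0.33 and -0.31 for the rest, of which 18 and 1 fell. Mitochondrially encoded genes held 2.54% to 2.82% of summed RPKM in Ctrl1, 1.26% to 1.49% in PLA1 and 3.54% to 4.02% in the neuron libraries. Rescaled without them, 638 genes were higher and 578 lower. Coa3, an assembly factor of complex IV, read 76.4 and 67.2, then 21.9 and 19.6, and 128 to 153 in the neuron set (1.90). Txnip, the thioredoxin-binding arrestin relative that restrains glucose uptake, read 33.9 and 33, then 9.86 and 8.69, and 8.98 to 14.8 (2.10).

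Markers of other cell types moved in both sets, and not alike. The difference was higher for 5.96% and lower for 5.63% of all genes tested. Of 16 microglia and macrophage markers tested, 14 fell in the first set and 4 in the neuron set, with medians of -1.07 and -0.44, and 4 were higher in the difference. The summed RPKM of the list's 22 genes was 894 and 819 in Ctrl1, 373 and 371 in PLA1, 194 and 195 in Neuron-ctrl, and 131 and 117 in Neuron-PLA. Csf1r, the receptor on which microglia depend, went from 31.1 and 35.3 to 11.4 and 10.4 and read 9.51 and 10.5 against 6.59 and 7.1 (1.04); Lyz2 went from 308 and 275 to 125 and 107 and lay between 9.83 and 12.1 (1.29). Of 9 astrocyte markers 5 were lower and 1, Apoe, higher; 8 fell in the neuron set. The count of lower ones was 3 without Ctrl1 replicate 2. Mlc1, of astrocyte endfeet, read 17.9 and 17.7, 20.5 and 18.2, 16.2 and 14, and 8.48 and 7.43 (-0.96). Among 12 interneuron and ventral forebrain genes, 7 fell in the first set and 8 in the neuron set, where 13.5% and 1.81% of all genes fell. In the difference 3 were lower, among them Sp8 (-1.06) and Meis2 (-1.08), and 1 was higher, Npy (1.20).

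Several vascular genes were measurable only in the neuron table. The summed RPKM of 20 endothelial markers was 75.7 and 74.7, 85.1 and 79.3, 88 and 85.6, and 36.3 and 40.8, but Cldn5 stood at 18 and 17.4 in Neuron-ctrl and 1.65 and 1.26 in Neuron-PLA with at most 0.0671 in the first set. Only 3 endothelial genes were tested, and Mfsd2a (-0.77) and Itm2a (-0.91) were lower, as were 5.63% of all genes tested. That count was smaller under some alternatives. The part that shifts in these cell types played in the differences of other groups was not tested.

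In the pathway the construct addresses, the shares of genes passing the difference were near the 11.6% of all genes tested. They were 8.33% of ether lipid and plasmalogen genes and 7.14% of peroxisomal enzymes and transporters. Among PLAAT and phospholipase genes the share was 8.33%. The counts are therefore no result about the pathway. Of 12 ether lipid and plasmalogen genes 1 was higher, Tmem86a, a lysoplasmalogenase relative, at 40.5 and 39.7 against 20.8 and 17.9 in the first set and 29.5 and 36.4 against 28.7 and 25.2 in the neuron set (0.74, adjusted p = 0.0198). The synthesis enzymes Gnpat (-0.07), Agps (0.11) and Far1 (0.16) did not pass. Of 28 peroxisomal enzymes and transporters 2 were higher, Idh1 (0.81) and Scp2 (0.53), and of 12 PLAAT and phospholipase genes 1, Pla2g6, which rose in the neuron set from 4.83 and 4.64 to 8.91 and 8.85 and read 6.53 and 6.36 against 7.21 and 6.69 in the first (0.69). With limma-voom 3 of the PLAAT and phospholipase genes were higher, and 3 peroxisomal enzymes and transporters were higher and 1 lower, where 1387 of 10173 genes were called. None of 17 fatty acid synthesis genes passed in limma, with 2 higher and 1 lower at an unadjusted p under 0.05 and 1 higher with limma-voom. The cholesterol synthesis list had 4 higher genes of 23, led by Insig1 (1.03), and 2 without Ctrl1 replicate 1. In the autophagy and lysosome list 8 of 28 were higher, 5 without Ctrl1 replicate 1, and Map1lc3a was at 167 and 163, then 73.5 and 79.1, and 204 to 238 in the neuron set (1.07).

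Changes shared by both sets were fewer. Both sets passed in the same direction for 32 genes that rose and 58 that fell, and the difference did not pass for 83 of these 90. Beyond Plaat3, Bcl2l2, an anti-apoptotic BCL2 relative (ENSMUSG00000022194, the symbol being shared with another identifier), read 3.77 and 3.84, 7.28 and 10.1, 6.6 and 7.48, and 16.1 and 14.7. The 2 rises were 1.00 and 1.03 and their difference was 0.03 (95% interval -0.45 to 0.52). Tmem119, a microglial marker, fell from 22.2 and 24.6 to 7.3 and 13 and from 6.61 and 5.79 to 1.4 and 1.98 (difference -0.25, interval -0.94 to 0.44). Cck, a neuropeptide of cortical neurons, fell from 8.66 and 6.81 to 1.61 and 1.54 and from 16.9 and 18 to 7.81 and 8.04; its difference of 0.71 passed narrowly (adjusted p = 0.0443) and did not on recovered reads (adjusted p = 0.0846). Rgs5, a pericyte gene (-0.34), Nxph2 (0.37) and the haemoglobin gene Hba-a1 (-0.28) also fell in both. Rgs5 reached the filter in the first table only through Ctrl1 (means of 1.8 and, in PLA1, 0.447 RPKM). Its fall there is therefore no support for a shared change. Each interval is wide, so equal change was not shown.

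Opposite calls in both sets numbered 43 genes that rose in the first set and fell in the neuron set, and 7 the other way. Of all genes tested, 1.81% fell and 0.998% rose in the neuron set, so falls were already more frequent there. Opposite calls need neuron-set calls, whose number depended on single libraries, as given above. They were not recounted with a library left out. Among the 43 were Sesn2 and Ifitm3, given above, and Rgcc, a complement-induced cell cycle regulator. Rgcc rose from 36.4 and 37.7 to 59 and 62.2 and fell from 23.2 and 25.2 to 8.35 and 5.81 (-2.35). Mtfr2, a mitochondrial fission regulator, rose from 3.93 and 3.66 to 9.58 and 8.96 and fell from 2.01 and 2.9 to 0.467 and 0.399 (-2.36). Mtfr2 reached the filter in the neuron table only through Neuron-ctrl (means of 2.46 and, in Neuron-PLA, 0.433 RPKM), as did Ifitm3. The falls of both there are therefore no support for an opposite change. Zfp36l1, which promotes decay of messenger RNA, was at 22.3 and 25.7, 46.8 and 57.2, 7.23 and 8.25, and 3.96 and 3.83 (-1.91). The imprinted gene Mest rose from 24.2 and 25.5 to 57.5 and 55.6 and fell from 16 and 15.8 to 10.1 and 11.7 (-1.67). Among the 7 were Klhl29 (1.33), Stxbp2 (1.08), Peli1 (0.96) and Grina, a membrane protein that limits calcium release. Grina was at 96.3 and 88.5 against 61.6 and 70.1 and at 198 and 194 against 265 and 257 (0.90).

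The 7 also included a gene of the Y chromosome. Ddx3y read 9.07 and 9.54 in Ctrl1, 3.38 and 4.33 in PLA1, 6.48 and 6.55 in Neuron-ctrl, and 11.7 and 11.6 in Neuron-PLA, a difference of 1.85. Eif2s3y, also Y-linked, read 4.78 and 4.04, 1.18 and 1.26, 4.82 and 7.71, and 10.6 and 12 (2.07), and Uty passed as well (1.06). Kdm5d, too low to test, had the same order. Xist, the RNA of the inactive X chromosome, went the other way, at 5.26 and 4.94, 8.52 and 9.46, 5.83 and 6.51, and 5.11 and 4.29 (-1.04). Every library held both Xist and Y-linked RNA. The labels give no sex, and the part of the mix of sexes in the other differences was not tested.

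**Figure D5:**
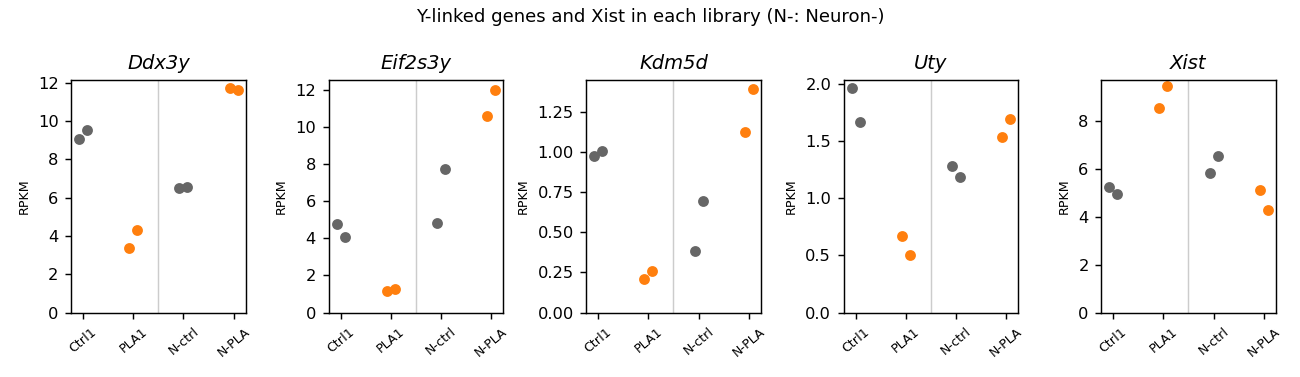
RPKM of 4 Y-linked genes and Xist in each library (points), with the first set left and the neuron set right of each grey line, on linear axes starting at 0. The Y-linked genes are lower in PLA1 than in Ctrl1 and higher in Neuron-PLA than in Neuron-ctrl, and Xist is higher in PLA1 (8.52 and 9.46) than in Ctrl1 (5.26 and 4.94) and lower in Neuron-PLA than in Neuron-ctrl.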

How the data were processed

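RNA sequencing of 8 mouse libraries was used, in 4 groups of 2. The submitters' processing notes name STAR 2.7.9a, HTSeq 0.6.0 and the mm10 genome. Values as deposited are RPKM, as their values show: multiplied by GENCODE M21 exon lengths and a read total per library, 97.5% to 97.8% of nonzero values gave whole reads within 0.01. The authors' 2 tables were made separately, so every difference was taken within a table first.

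Genes that averaged 1 RPKM or more in each table were fitted with limma 3.58.1 in R 4.3.3 on log2(RPKM + 1), with 4 group means and a mean-variance trend, and Benjamini-Hochberg adjusted p under 0.05 over all genes. The scale understates changes of low genes. In simulated data (10101 genes), 50 genes per fold were changed, drawn only from genes with many reads. All genes were given the same dispersion, which can differ from that of the real libraries. Among these well-covered genes the test recovered 16% of 1.5-fold, 74% of 2-fold and 98% of 3-fold differences, and 7.14% of called genes had not been changed. Recovery of low genes was not tested. Alternatives covered the pseudocount, filters, scaling, variance model, replicate block, limma-voom on recovered reads, each library left out and, chosen after seeing the data, removal of exon length and GC trends.

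Genes were named by a rule: the targeted genes, the 12 largest differences of each sign without overlap and with a group mean of at least 5 RPKM, the 6 largest opposite calls of each sign, 8 shared changes, and up to 4 genes per list by adjusted p. Other list members, genes too low to test and sex-linked genes were added after their values were seen. The comparison, its members and the lists were chosen with earlier results of these data known. The other 10 libraries of the series were not used here. Results of some genes are not reported here.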

Additional observations from a re-analysis of the deposited data

Results flagged for a closer look

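By a test of the difference itself, the neuron-set change lay above the first-set change for 621 genes and below it for 587. The changes are signed, and most of these genes passed in the first set only. Of the 621, 537 fell in the first set and did not pass in the neuron set. Of the 587, 427 rose in the first set and did not pass in the neuron set. Within the 621 and 587, some genes passed in both sets in opposite directions, and the 6 with the largest difference of each sign follow. Those that fell in the first set and rose in the neuron set were Ddx3y (1.85), Klhl29 (1.33), Scg2 (1.27), Stxbp2 (1.08), Peli1 (0.96) and Grina (0.90). Those that rose in the first set and fell in the neuron set were Sesn2 (-2.84), Ifitm3 (-2.54), Mtfr2 (-2.36), Rgcc (-2.35), Rpl23a-ps2 (-2.06) and Zfp36l1 (-1.91). Rpl23a-ps2 is a pseudogene of a ribosomal protein gene, so its reads can be shared with near-identical copies, and its value is uncertain. Scg2 reached the filter of its low table only through Ctrl1, and Ifitm3 and Mtfr2 only through Neuron-ctrl. The opposite calls of these genes are therefore no support for an opposite change.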

How the results depend on the processing

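The direction and the call held in 2877 of the results of named genes under 20 alternatives, and 264 lost the call. Reversals came in 12 cases, all for genes whose difference did not pass: Plaat3 on recovered reads (1.11) and with a pseudocount of 0.1 (0.54), Tmem119 without PLA1 replicate 2 (0.13, with -0.63 as the lowest), Hba-a1 on recovered reads (0.0011) and without Ctrl1 replicate 1 (0.29, with -0.85 as the lowest), Rgs5 on recovered reads (0.55) and with a pseudocount of 0.1 (0.34), and Bcl2l2 on recovered reads (-0.056), with a pseudocount of 0.1 (-0.032) and without Neuron-PLA replicate 1 (-0.03), Neuron-ctrl replicate 1 (-0.05) or PLA1 replicate 1 (-0.18, with 0.24 as the highest).

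An adjusted p under 0.01 left 266 higher and 211 lower genes. Leaving out each library in turn gave 342 to 554 higher and 255 to 554 lower genes, 357 to 1417 that rose and 627 to 1470 that fell in the first set, and 9 to 109 that rose and 11 to 279 that fell in the neuron set. A mean of at least 5 RPKM left 836 genes that rose in the first set. In the neuron set the risers numbered 301 with limma-voom, 21 without a filter, 36 without the variance trend and 173 rescaled without mitochondrially encoded genes, and the fallers 54 without a filter and 67 without the trend. Of the 1208 genes, 1071 also passed with limma-voom and 1185 with length and GC trends removed. Median-ratio scaling called 755 higher and 472 lower, a share of 61.5% higher against 51.4%. The causes were not tested.

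Same-numbered libraries deviated together at a correlation of 0.132 in the first set and 0.0417 in the neuron set, or 0.194 and 0.0213 among genes of at least 5 RPKM. The labels do not say that a number marks a pair. With the replicate number as a block, 683 genes were higher and 671 lower, 1436 rose and 1506 fell in the first set, and 181 rose and 359 fell in the neuron set. Depth limits genes under about 1 RPKM, which were not tested.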
